A study of Mus musculus with 67 samples.

Results

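Axon guidance ligands and receptors are the molecules with which a growing axon reads its surroundings, and the accessible chromatin near 44 genes of this kind was followed while mouse embryonic stem cells turned into ventral spinal cord progenitors. An element was a member when its nearest transcription start site (TSS), as listed in the authors' annotation of their accessible regions, belonged to one of the 44 genes. This rule gave 862 of 111638 elements (0.772%). The nearest TSS names an element and does not show which gene the element acts on.

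Netrins are secreted proteins that attract axons through the receptors DCC and neogenin and repel them through the UNC5 receptors. Slit proteins, made by the floor plate among other sources, repel axons that carry Robo receptors. Ephrins and Eph receptors both sit in the cell membrane and signal on contact, which steers motor axons in the limb. Most class 3 semaphorins act through neuropilins that pair with plexins. The netrin family had 150 elements, the Slit-Robo family 174, the ephrin family 360 and the semaphorin family 178, and 18 of the genes encoded ligands and 26 receptors.

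The cells were of the HM1 mouse embryonic stem cell line, a single line that was differentiated independently for each replicate. They were assayed by CaTS-ATAC, in which fixed cells are cut by the Tn5 transposase at open chromatin, stained for transcription factors inside the cell and sorted, so that each library comes from 1 progenitor type. Neuromesodermal progenitors (NMPs, the common precursors of spinal cord and trunk mesoderm) were taken at day 3 without SAG, an agonist of Smoothened that stands in for Sonic hedgehog. All later cells had been in retinoic acid from day 3, and neural progenitors (NPs) were sorted at days 4, 5 and 6 as p0-1 (0 or 10 nM SAG), p2 (10 or 100 nM), pMN (100 or 500 nM) and p3 (100 or 500 nM), which differ in the SAG that their cultures received as well as in the sorted type. There were 67 samples in 25 conditions, 17 of them with n = 3 and 8 with n = 2, and samples of a type and day were pooled over SAG.

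Between 9298160 and 29985325 reads fell in elements per sample, with a median of 20254011, and the squared correlation of replicates was 0.875 to 0.976 over 59 pairs. Values are normalized read counts, the reads in an element divided by the sample's size factor. Most marker loci went with the labels. The summed counts of the elements of 5 NMP marker genes were 12175 in NMPs and 3816 to 4303 at day 4. Those of Nkx6-1, a gene of p2, pMN and p3 progenitors, reached 13220 to 17836 in these types at day 6 against 6685 in p0-1. Those of Foxa2 stood at 13109 in day 6 p3 against 3932 in pMN. Nkx2-9, on the same list of p3 genes, did not separate these types, at 2927 against 3007. At day 4 p3 and pMN stood closer at Foxa2, at 8314 against 6988, and Nkx2-9 was at 3497 against 3249. A list of 3 neural progenitor genes rose from 11788 in NMPs to 15865 to 19363 at day 4. At day 6 it stood at 13786 in p3 against 20946 in pMN. A list of 4 mesoderm genes stood at 4661 in NMPs and 2318 to 2807 at day 4, and no element of these lists was at 0 in all samples. In sorted populations, more cells open at an element and more cutting per open cell cannot be told apart.

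Most of the members lay far from a promoter. Of the 862 elements, 418 were intergenic (48.5%, against 44.2% of all elements), 401 were in introns (46.5% against 41.1%), 17 in exons, 4 at transcription ends and 22 at promoters (2.55% against 7.41%). More than 100 kb separated 464 of them (53.8%) from the nearest TSS, against 24.0% of all elements, and 124 (14.4%) were more than 500 kb away, against 2.74%. Of the 418 in an intron or exon, 389 lay in the annotated gene itself and 29 in another gene. In width (median 766 bp against 883 bp) and level (median 38.4 normalized counts over all samples against 41.4) they stood close to all elements, and 230 of the 862 had a mean above 100 counts (26.7% against 28.4%).

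The elements were spread unevenly over the genes. Efnb2 had 93, Robo1 65, Efna5 61 and Dcc 52. Unc5d (35), Robo2 (34), Slit3 (33), Sema3a (32), Epha3 (31), Epha5 and Epha7 (29 each) and Sema3d (28) followed, then Slit2, Ephb2, Nrp2 and Plxna2 (22 each), Plxna4 (21), Epha4 (19), Unc5a and Sema3e (17 each), Plxna1 (16), Unc5c (15), Efnb1 (14), Ntn1 (13), Slit1 (12), Epha6 and Epha8 (11 each), Sema3c (10) and Neo1 (9). Fewest were listed for Robo3 (8), Unc5b, Epha2, Ephb1, Ephb3 and Sema3f (7 each), Ephb4 (5), Efna2 and Efna3 (4 each), Efna4 (3), Ntn4, Efna1 and Nrp1 (2 each) and Efnb3 and Plxna3 (1 each). Neighbouring elements of one gene share that gene's surroundings and are not independent of each other.

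The central 300 bases of 8 elements on which the results turn are shown, so that the sequences behind the values can be seen. They lie at chr5:12525229-12525528 (Sema3d), chr16:74397427-74397726 (Robo2), chr4:141297841-141298140 (Epha2), chr9:59163285-59163584 (Neo1), chr11:35151570-35151869 (Slit3), chr8:7850436-7850735 (Efnb2), chr1:77674788-77675087 (Epha4) and chr16:72610669-72610968 (Robo1) of GRCm38, the build called mm10, read 5′ to 3′ on the plus strand. Capitals mark matches on either strand to short motifs of factor classes at work in the neural tube (SOX, ACAAAG or ACAATG; homeodomain, TAATTA; E-box, CAGATG or CAGCTG; forkhead, TGTTTAC; GLI, ACCACCC; NKX2, CACTTGA). A match describes letters and shows no binding.
Sema3d element in intron 8, opened from NMP to NP: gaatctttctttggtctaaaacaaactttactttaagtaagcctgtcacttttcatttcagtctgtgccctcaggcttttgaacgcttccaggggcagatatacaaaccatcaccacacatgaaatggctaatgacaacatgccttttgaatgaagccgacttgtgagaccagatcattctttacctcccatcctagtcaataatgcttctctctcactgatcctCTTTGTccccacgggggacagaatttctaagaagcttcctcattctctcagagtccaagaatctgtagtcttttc
Robo2 element in intron 1, opened from NMP to NP: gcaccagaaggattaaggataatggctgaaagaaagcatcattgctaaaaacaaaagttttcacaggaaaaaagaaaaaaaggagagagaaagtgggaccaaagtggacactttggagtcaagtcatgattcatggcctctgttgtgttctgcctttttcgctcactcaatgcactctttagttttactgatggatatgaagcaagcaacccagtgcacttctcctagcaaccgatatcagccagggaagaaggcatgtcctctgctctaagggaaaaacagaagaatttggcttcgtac
Epha2 upstream element, closed from NMP to NP: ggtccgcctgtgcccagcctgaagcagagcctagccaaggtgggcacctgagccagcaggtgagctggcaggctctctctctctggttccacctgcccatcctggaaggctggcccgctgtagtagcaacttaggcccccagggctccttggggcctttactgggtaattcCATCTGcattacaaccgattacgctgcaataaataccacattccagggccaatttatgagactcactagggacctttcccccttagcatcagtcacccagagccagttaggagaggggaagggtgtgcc
Neo1 upstream element, opened from day 4 to day 6: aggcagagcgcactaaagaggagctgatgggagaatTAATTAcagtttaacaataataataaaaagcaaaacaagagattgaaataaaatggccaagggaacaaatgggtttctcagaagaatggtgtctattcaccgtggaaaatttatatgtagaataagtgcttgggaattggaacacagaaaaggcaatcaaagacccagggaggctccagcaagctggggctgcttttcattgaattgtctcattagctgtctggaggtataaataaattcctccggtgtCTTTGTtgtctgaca
Slit3 element in intron 1, graded over the types at day 6: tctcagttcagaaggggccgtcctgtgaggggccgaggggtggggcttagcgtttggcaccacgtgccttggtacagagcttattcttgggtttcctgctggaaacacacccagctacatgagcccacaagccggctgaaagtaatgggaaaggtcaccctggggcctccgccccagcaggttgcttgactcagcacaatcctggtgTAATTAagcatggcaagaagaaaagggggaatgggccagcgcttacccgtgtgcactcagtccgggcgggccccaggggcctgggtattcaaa
Efnb2 downstream element, highest in pMN at day 6: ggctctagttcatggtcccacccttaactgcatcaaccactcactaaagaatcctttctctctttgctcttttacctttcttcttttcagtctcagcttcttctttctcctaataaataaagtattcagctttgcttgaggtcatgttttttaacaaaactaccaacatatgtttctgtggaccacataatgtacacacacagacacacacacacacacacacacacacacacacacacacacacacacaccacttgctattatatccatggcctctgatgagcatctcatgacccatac
Epha4 upstream element, highest in p3 at day 6: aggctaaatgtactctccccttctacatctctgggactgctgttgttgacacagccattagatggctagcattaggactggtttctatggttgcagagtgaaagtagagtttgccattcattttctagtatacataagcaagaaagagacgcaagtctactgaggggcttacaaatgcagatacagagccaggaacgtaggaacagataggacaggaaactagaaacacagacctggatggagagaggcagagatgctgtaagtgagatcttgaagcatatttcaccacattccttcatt
Robo1 upstream element, low in p3: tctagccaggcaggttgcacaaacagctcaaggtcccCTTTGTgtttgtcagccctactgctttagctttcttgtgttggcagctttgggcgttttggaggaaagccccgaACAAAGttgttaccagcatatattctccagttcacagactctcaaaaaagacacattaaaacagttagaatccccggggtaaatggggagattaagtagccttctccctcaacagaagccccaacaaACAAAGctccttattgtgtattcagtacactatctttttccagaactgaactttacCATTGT

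These windows held different letters of the motif set. Sema3d had 1 SOX match, Robo1 4 SOX matches, Neo1 1 SOX and 1 homeodomain match, Slit3 1 homeodomain match and Epha2 1 E-box match, while the Robo2, Efnb2 and Epha4 windows had none. Over all 862 members, 51.6% of the central windows held a SOX match, against 44.6% of all elements. A homeodomain match stood in 10.1% of members against 7.85%, an E-box match in 40.7% against 40.9%, a forkhead match in 4.41% against 4.96%, a GLI match in 4.52% against 4.27% and an NKX2 match in 4.64% against 4.11%. The median GC content of the windows was 44.7% in members and 48.0% in all elements.

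The share of a library's element reads that fell in the members rose with time. It was 0.412% ± 0.0163 in NMPs (SD, n = 3), 0.522% ± 0.047 in p0-1 (n = 6), 0.557% ± 0.02 in pMN (n = 6) and 0.511% ± 0.0345 in p3 (n = 5) at day 4. At day 6 it reached 0.698% ± 0.0357 in p0-1 (n = 5), 0.703% ± 0.0283 in p2 (n = 6), 0.716% ± 0.0243 in pMN (n = 4) and 0.628% ± 0.0179 in p3 (n = 4). The day 6 range in p3 (0.610% to 0.651%) lay below that in pMN (0.687% to 0.738%), and both lay above every NMP sample (0.400% to 0.430%).

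The first comparison asked what changed as NMPs became NPs within a day. Elements near guidance genes opened more often than they closed: in pMN at day 4, 66 of 190 tested members (34.7%) were higher than in NMPs and 17 (8.95%) were lower. Of all 31555 tested elements 16.9% were higher and 7.41% were lower. The members held fewer promoters than all elements (2.55% against 7.41%, before the filter). They lay more often over 100 kb from a TSS (53.8% against 24.0%). No share given here or below was matched for this. An element counted as changed when its adjusted p from limma was under 0.01 and its mean moved more than 4-fold. The median log2 fold change was 0.03 in the members and -0.49 over all elements. In p0-1, 53 of 176 members (30.1%, against 14.4% of all elements) were higher and 14 (7.95%, against 6.21%) were lower, and in p3 49 of 170 (28.8%, against 13.8%) were higher and 15 (8.82%, against 7.74%) were lower. The NMP samples are shared by these 3 comparisons, which are therefore not independent of each other. A further 32 guidance ligands and receptors outside the list had 14 of 77 elements higher in pMN (18.2%) and 4 lower, and 23 genes of intracellular effectors of guidance signals had 23 of 74 higher (31.1%) and 3 lower.

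**Figure D1:**
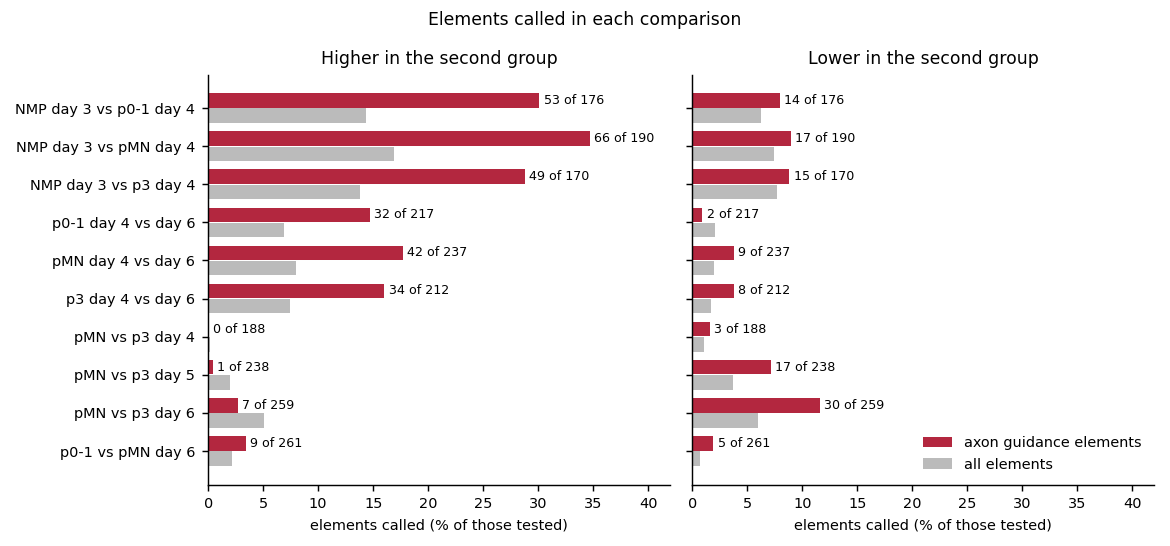
Share of tested elements (percent, horizontal axis) that were higher (left) or lower (right) in the second group of each of 10 comparisons, with the members in red and all tested elements in grey, and the number of members written at the bar. In the comparisons with NMPs the red bars for higher elements reach 28.8% to 34.7% against 13.8% to 16.9% for all elements, and in pMN against p3 at day 6 the red bar for lower elements reaches 11.6% against 5.97%.

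All families took part in the opening in pMN. Of the ligand elements 31 of 89 were higher and 8 lower, and of the receptor elements 35 of 101 were higher and 9 lower. The Slit-Robo family had 17 of 37 higher and 3 lower, the ephrin family 25 of 81 and 6, the semaphorin family 15 of 44 and 5, and the netrin family 9 of 28 and 3. Efna5 (7 elements), Efnb2 (6) and Robo1, Robo2 and Sema3a (5 each) had the most elements higher in pMN, and Epha2 and Sema3f (3 each) had the most lower. Of the genes, 27 had an element that was higher, 11 one that was lower and 6 had both.

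The strongest opening was in intron 8 of 17 of Sema3d (chr5:12525080-12525676), which encodes a secreted semaphorin. The 3 NMP samples held 0, 0 and 2.15 normalized counts at this element. In day 4 pMN the lowest of 6 samples was at 519, the median at 568 and the highest at 633. Every NP sample of day 4 thus lay far above every NMP sample. The log2 fold change was 8.38 on the scale of the mean plus 1 (limma, adjusted p 1.71e-13), and the ratio of 713 had a 95% interval of 197 to 5889 by counting error alone, since the NMP samples held 2 reads in all. In p0-1 the mean was 517 ± 217 (SD, n = 6), a log2 fold change of 8.23 (adjusted p 1.01e-08), and in p3 it was 401 ± 117 (n = 5), one of 7.87 (adjusted p 1.58e-11).

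Robo2, a receptor for Slits, had the next largest increase, in intron 1 of 28 (chr16:74397110-74398042), 14.25 kb downstream of its TSS. Its NMP values were 6.06, 12.1 and 1.08, and the 6 pMN values had a lowest of 1449, a median of 1565 and a highest of 1943. The rise of 7.77 on the log2 scale (adjusted p 3e-13) was set beside rises of 7.25 in p0-1 (mean 1130 ± 331, adjusted p 1.19e-09) and 7.07 in p3 (mean 994 ± 145, adjusted p 5.91e-13). Accessibility held here, and at day 6 the means were 1657 ± 192 in p0-1, 2136 ± 232 in pMN and 1009 ± 185 in p3.

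Epha3, an Eph receptor, had an element 81.7 kb upstream of its TSS (chr16:63945551-63946180) that opened most in the ventral types and then lost accessibility. In p0-1 its means were lower but took the same course, 68.4 (0 nM SAG) and 56.1 (10 nM) at day 4 and 7.9 and 15.1 at day 6. NMP samples held 0, 2.70 and 1.08 counts, and the 5 p3 samples of day 4 held 50.5, 372, 417, 338 and 463. The p3 rise was 7.19 on the log2 scale (adjusted p 1.01e-07), a ratio of 302 with a counting interval of 103 to 1465. By day 6 p3 had fallen to a mean of 34.9 ± 11.2 (n = 4) and pMN from 316 ± 116 (n = 6) to 70.5 ± 16 (n = 4), log2 changes of -3.20 (adjusted p 0.00088) and -2.15 (adjusted p 1.02e-05).

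Closing was led by Epha2, an Eph receptor of early embryonic cells. Its element 3.23 kb upstream of the TSS (chr4:141297722-141298258) held 415, 340 and 486 counts in NMPs and 9.18 to 23.0 in pMN, with a median of 16.5. This was a log2 change of -4.59 (adjusted p 7.06e-11), next to -4.61 in p0-1 (mean 16.0 ± 2.7, adjusted p 4.96e-09) and -5.48 in p3 (mean 8.28 ± 3.19, adjusted p 1.47e-10). A second Epha2 element, 5.26 kb upstream (chr4:141295774-141296153), held 502, 700 and 602 counts in NMPs and 29.1 ± 8.42 in pMN (log2 change -4.33, adjusted p 5.81e-11). Neither reopened, and the day 6 means at the first were 5.52 to 9.22 in p0-1, pMN and p3.

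**Figure D2:**
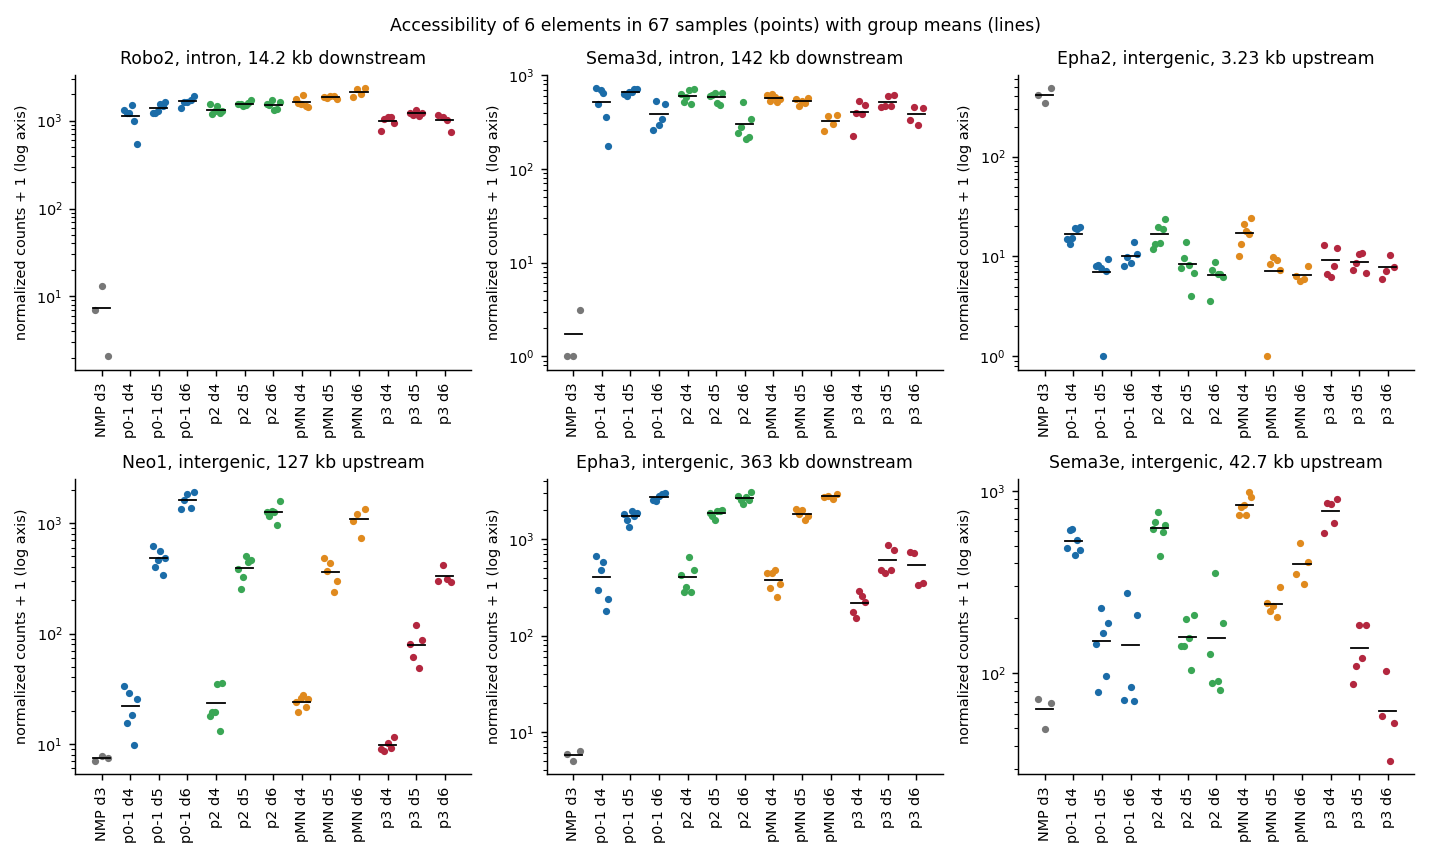
Normalized counts plus 1 (log axis) of 6 elements in each of the 67 samples, grouped by cell type and day, 1 point a sample with lines at the group means. The Sema3d and Robo2 elements are near the floor in the 3 NMP samples and high from day 4, the Epha2 element shows the reverse, the Neo1 element climbs between day 4 and day 6, the Epha3 element is lower in p3 than in every other type at day 6, and the Sema3e element is lower in p3 than in pMN at day 6, where samples of p0-1 and p3 overlap.

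The next comparison followed each NP type from day 4 to day 6, the time over which the progenitors mature. Members again opened more often than they closed. In pMN 42 of 237 (17.7%, against 7.94% of all elements) were higher at day 6 and 9 (3.80%, against 1.98%) were lower. In p0-1 these were 32 of 217 (14.7%, against 6.93%) and 2 (0.922%, against 2.07%), and in p3 34 of 212 (16.0%, against 7.44%) and 8 (3.77%, against 1.69%). Median log2 changes were 0.53, 0.65 and 0.37 in the members of pMN, p0-1 and p3, against 0.25, 0.23 and 0.18 over all elements. Of the 72 members higher at day 6 in any of the 3 types, 10 were higher in each. The 32 further ligands and receptors had 7 of 79 elements higher in pMN (8.86%) and 3 lower, and the intracellular effectors 9 of 81 (11.1%) and 0 lower.

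By role, in pMN 25 of 135 receptor elements rose and 4 fell, and 17 of 102 ligand elements rose and 5 fell. In p0-1 the counts were 23 of 121 and 0 for receptors and 9 of 96 and 2 for ligands, and in p3 19 of 116 and 3, and 15 of 96 and 5. By family, netrin elements rose in 10 of 42 cases in pMN, 10 of 38 in p0-1 and 7 of 32 in p3, with 0 falls in each, and semaphorin elements in 1 of 48, 1 of 44 and 3 of 43. In pMN the rising elements lay most often near Efnb2 (9), Efna5 (5), Robo1 and Dcc (4 each), and in p3 near Slit1 and Efna5 (4 each) and Dcc and Slit2 (3 each).

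Neo1, which encodes the DCC relative neogenin, had the element with the largest rise in p0-1 and pMN, 127 kb upstream of its TSS (chr9:59162882-59163986). In p0-1 the 6 day 4 samples had a lowest of 8.81, a median of 21.1 and a highest of 32.5 counts. The 5 day 6 samples held 1333, 1610, 1833, 1376 and 1906, so that no day 4 sample came near a day 6 sample. The log2 rise was 6.20 (VST difference 5.68 ± 0.21 SE, adjusted p 4.95e-10). In pMN the mean went from 23.1 ± 3.13 to 1082 ± 266 (5.49, adjusted p 7.29e-11) and in p3 from 8.69 ± 1.17 to 329 ± 59.1 (5.09, adjusted p 2.65e-08). Day 5 lay between, at 364 ± 98.5 in pMN and 78.2 ± 27.2 in p3.

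Unc5d, a netrin receptor of the repellent class, followed the same course at an element in intron 3 of 17 (chr8:28855182-28855869). The means went from 17.4 ± 10.5 to 1054 ± 96.5 in p0-1 (log2 rise 5.84, adjusted p 1.47e-09), from 33.0 ± 16.6 to 1296 ± 141 in pMN (5.25, adjusted p 1.29e-09) and from 27.8 ± 11 to 769 ± 248 in p3 (4.74, adjusted p 1.36e-07). In p3 the largest rise was 925 kb upstream of Epha7 (chr4:27887379-27887948), an Eph receptor gene. There the 5 day 4 samples held 8.07, 7.58, 23.7, 19.2 and 23.2 counts and the 4 day 6 samples 576, 641, 575 and 596, a log2 rise of 5.11 (adjusted p 4.79e-08).

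Few elements closed over these days, and several of them belonged to ligands. Intron 1 of Sema3e (chr5:14031784-14033767) went from 204 ± 48.2 to 30.1 ± 3.94 in p0-1 (-2.72, adjusted p 2.32e-07), from 448 ± 66.4 to 96.2 ± 27.3 in pMN (-2.21, adjusted p 5.89e-08) and from 435 ± 111 to 53.6 ± 13.8 in p3 (-3.00, adjusted p 5.55e-07). An element 59.3 kb upstream of Efna5 (chr17:62939367-62941828), an ephrin gene, fell from 365 ± 43.1 to 69.8 ± 14.2 in p0-1 (-2.37, adjusted p 7.46e-08). These 2 were the members that fell in all 3 types.

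Further falls were called in pMN or p3. In pMN an element in intron 1 of Epha5 (chr5:84412680-84413252) went from 160 ± 28.1 to 12.2 ± 6.14 (-3.60, adjusted p 1.84e-08), having been at 37.2 ± 30.5 in NMPs and 19.6 ± 7.21 in day 4 p3. One 124 kb downstream of the Efnb2 TSS (chr8:8536454-8537207) went from 170 ± 10.8 to 20.2 ± 8.1 in pMN (-3.01, adjusted p 8.75e-09). Neither element had enough counts to be tested for day 6 against day 4 in p0-1 or p3, so the difference between types was not tested there. In p3 the largest falls were 42.7 kb upstream of Sema3e (chr5:13982060-13983054), from 771 ± 136 to 61.1 ± 29.2 (-3.64, adjusted p 2.57e-07), and in Robo2 intron 1, 115 kb from the nearest TSS (chr16:74526352-74527026), from 201 ± 53.1 to 19.0 ± 6.1 (-3.34, adjusted p 1.22e-06). The Robo2 element also had values of -1.80 in pMN and -1.92 in p0-1, under the fold threshold, and its change in p3 did not differ from that in pMN past the threshold (-1.54, adjusted p 0.055). Loci of 7 neuronal genes rose over the same days, from a summed 7840 (7603 to 8111) to 14706 (14561 to 14821) in pMN, from 6613 (6317 to 7008) to 9609 (7827 to 10856) in p0-1 and from 7059 (6466 to 7470) to 10451 (9289 to 11533) in p3, with 6 of 7 genes higher in each type. None of the 7 was at 0 in the libraries, and their part in the result was not tested.

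The third comparison set p3, the most ventral type, against pMN, which gives rise to motor neurons. More members were called between the 2 types at days 5 and 6 than at day 4, most of them lower in p3. Calls over all elements rose too, from 370 at day 4 to 3704 at day 6. A rising count does not test whether the change with time differed, and the interaction term given below passed in 4 of 217 members. The day 4 p3 group held the sample with the fewest reads (9298160), replicate 1 at 100 nM SAG. Without it 4 members were called at day 4, against 3 with all samples. At day 4, 0 of 188 members were higher in p3 (0.179% of all elements were) and 3 were lower (1.60%, against 1.07%). Of the 188, 77 had an unadjusted p under 0.05, and the share of all elements at that level is not given here. At day 5, 1 of 238 was higher (0.420%, against 1.99%) and 17 were lower (7.14%, against 3.68%), and at day 6 7 of 259 were higher (2.70%, against 5.03%) and 30 were lower (11.6%, against 5.97%). The median log2 difference of p3 from pMN at day 6 was -0.20 in members and 0.00 over all elements. The further ligands and receptors had 5 elements higher and 3 lower of 81, and the intracellular effectors 4 higher and 2 lower of 95.

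By role, 23 of 150 receptor elements were lower in p3 at day 6 and 5 higher, next to 7 of 109 lower and 2 higher for ligands, a difference that was not tested. Netrin family elements were lower in 8 of 41 cases and higher in 0, Slit-Robo elements in 7 of 55 and 2, ephrin elements in 11 of 116 and 3 and semaphorin elements in 4 of 47 and 2. Dcc and Robo1 (4 elements each) and Unc5d, Efnb2, Epha3, Epha5 and Nrp2 (3 each) had the most elements lower in p3. Summed counts at the 7 neuronal genes were 10451 (9289 to 11533) in p3 and 14706 (14561 to 14821) in pMN, lower in p3 at 6 of 7 genes, and their part in the difference was not tested.

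The 3 elements lower in p3 at day 4 lay near Epha5, Sema3a and Efnb2. The Epha5 element, 394 kb upstream of its TSS (chr5:84810996-84812109), had a lowest of 228, a median of 282 and a highest of 387 in 6 pMN samples, and held 18.2, 32.2, 73.6, 41.5 and 56.2 in p3. The difference was -2.72 on the log2 scale (adjusted p 1.13e-06), and it stood at -2.06 at day 5 (adjusted p 1.69e-07) and -2.18 at day 6 (adjusted p 9.84e-06), while the means rose in both types, to 879 ± 42.7 in pMN and 193 ± 46.1 in p3. Sema3a, a secreted repellent of motor and sensory axons, had an element 85.8 kb upstream (chr5:13312511-13314421) at 163 ± 29.8 in pMN and 28.2 ± 12.6 in p3 (-2.49, adjusted p 2.31e-06). The Efnb2 element 124 kb downstream was at 170 ± 10.8 and 33.5 ± 9.43 (-2.31, adjusted p 8.99e-08). The count of 3 fell to 1 without the first 500 nM pMN replicate.

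At day 5 the element with the largest fall lay in Robo2 intron 1, 23.6 kb from the nearest TSS (chr16:74435028-74435743). The 5 pMN samples held 496, 359, 359, 359 and 361 counts and the 5 p3 samples 37.7, 39.5, 34.3, 54.5 and 24.1. All p3 samples lay below all pMN samples, by -3.31 on the log2 scale (adjusted p 1.33e-08), and at day 6 by -3.25 (adjusted p 3.33e-05). A Slit3 element in intron 1 of 35 (chr11:35151122-35152317), 30.3 kb into this Slit ligand gene, was at 486 ± 91.2 in pMN and 53.9 ± 26.4 in p3 at day 5 (-3.15, adjusted p 1.77e-07). The 1 member higher in p3 was 15.7 kb upstream of Plxna2 (chr1:194603651-194604591), a semaphorin co-receptor gene, at 222 ± 46.6 in p3 against 35.8 ± 8.56 (2.60, adjusted p 1.17e-07), and it was still higher at day 6, at 253 ± 65.4 against 29.3 ± 17.2 (3.07, adjusted p 0.000106).

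The largest gain in p3 at day 6 was at an element near Epha4, the receptor through which ephrins direct limb-bound motor axons. This element, 160 kb upstream (chr1:77674669-77675206), held 145, 220, 150 and 318 counts in p3 and 2.69, 7.51, 5.01 and 14 in pMN. The difference was 4.65 on the log2 scale (adjusted p 1.66e-05), and in p3 the element rose from 17.5 ± 7.46 at day 4 through 81.1 ± 28 at day 5 to 208 ± 80.5 at day 6 (3.50, adjusted p 3.59e-06). In p0-1 and p2 at day 6 it stood at 4.47 ± 1.02 and 14.6 ± 10.2. Summed over all its elements the Epha4 locus did not differ at day 6, at 2280 in p3 and 2221 in pMN (log2 difference 0.04, limma adjusted p 0.694).

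The largest loss in p3 at day 6 was 52.3 kb upstream of Robo1 (chr16:72610491-72611145). The pMN samples held 461, 181, 283 and 80.6 counts and the p3 samples 26.4, 10.2, 5.78 and 3.88. The groups did not overlap although the pMN values ranged widely. The difference of -4.33 on the log2 scale had an adjusted p of 0.000322 by limma and of 0.0126 with voom weights on the recovered reads, which misses the threshold. An Efnb2 element 811 kb downstream of its TSS (chr8:7850199-7850972) held 603, 447, 679 and 454 counts in pMN and 79.2, 26.4, 40.4 and 5.83 in p3 (-3.81, adjusted p 9.9e-05). Efnb2 encodes a transmembrane ephrin.

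The element with the largest range in the ephrin family showed both the shared opening and a lower level in p3 at day 6. It lay 363 kb downstream of the Epha3 TSS (chr16:63500610-63502042) and held 4.76 ± 0.673 counts in NMPs (n = 3). At day 6 the mean was 2768 ± 247 in p0-1, 2674 ± 252 in p2 and 2789 ± 138 in pMN. The p3 samples held 742, 726, 332 and 353, below every sample of the other types, and the difference from pMN was -2.37 (adjusted p 4.29e-05). Its rise from day 4 was 2.76 in p0-1 (adjusted p 1.67e-06) and 2.87 in pMN (adjusted p 2.35e-09), and that in p3 was 1.30 (adjusted p 0.00249), under the fold threshold.

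Whether the change with time itself differed between p3 and pMN was tested by an interaction term. The term passed in 4 of 217 members: 1 was higher in p3 (0.461%, against 1.32% of all elements) and 3 were lower (1.38%, against 1.02%). An element in intron 1 of Robo1 (chr16:72677302-72679336) rose in pMN from 58.3 ± 16.1 to 315 ± 75.6 while p3 went from 81.6 ± 26.3 to 60.2 ± 11.7, a difference of -2.85 between the log2 changes (adjusted p 9.8e-06). One 252 kb downstream of Efnb2 (chr8:8408944-8409539) rose from 72.3 ± 25.8 to 421 ± 47 in pMN while p3 went from 40.3 ± 19.6 to 33.8 ± 13.4 (-2.78, adjusted p 5.96e-05). The Sema3e element 42.7 kb upstream fell further in p3 than in pMN, where it went from 839 ± 99.8 to 394 ± 89.7 (-2.55, adjusted p 7.12e-06). The Epha7 element 925 kb upstream rose further in p3 than in pMN, where it went from 37.2 ± 17.9 to 302 ± 195 (2.12, adjusted p 0.00366), and its call was lost with voom weights (adjusted p 0.0618). It was also lost, at differences of 1.89 to 2.00, without p3 replicate 1 or 2 of day 4 at 100 nM SAG, pMN replicate 1 of day 4 at either concentration or pMN replicate 2 of day 6 at either concentration. With 1 SAG concentration alone the terms of Epha7 (adjusted p 0.0366) and Efnb2 (adjusted p 0.0305) missed the threshold. With 1 sample left out, the count of 4 ran from 3 to 9, the highest without replicate 2 of day 6 p3 at 100 nM SAG.

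At day 6 p0-1 and pMN differed at fewer members than pMN and p3 did. Of 261 members 9 (3.45%, against 2.19% of all elements) were higher in pMN and 5 (1.92%, against 0.714%) were lower. When each sample was centered on its median these became 7 and 11, so the split between higher and lower turned with the scaling. Summed counts at the 7 neuronal genes were 9609 (7827 to 10856) in p0-1 and 14706 (14561 to 14821) in pMN, higher at 7 of 7 genes, and their part in the result was not tested. The 9 elements higher in pMN lay near Efnb2 (4) and Epha3, Robo2, Unc5c, Sema3c and Slit3 (1 each). Among them were the Efnb2 element 811 kb downstream, at 546 ± 114 against 23.6 ± 12.1 (4.47, adjusted p 1.46e-05), and one 160 kb upstream of Epha3 (chr16:64023923-64024508), where the 5 p0-1 samples held 16.5, 24.8, 27.1, 30.3 and 22.3 counts and the 4 pMN samples 290, 262, 256 and 322 (3.49, adjusted p 7.19e-06).

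The 5 elements lower in pMN lay near Robo1 (2), Slit2, Slit3 and Efnb2 (1 each). One 930 kb upstream of Slit2 (chr5:47052975-47053463) held 251, 310, 263, 274 and 413 counts in p0-1 and 42.1, 47.0, 30.1 and 19.9 in pMN (-3.08, adjusted p 2.2e-05). One in exon 3 of 29 of Robo1 (chr16:72904325-72904977) was at 202 ± 65.7 and 37.8 ± 18.7 (-2.39, adjusted p 0.000921). The Slit3 element in intron 1 was at 1138 ± 159 and 271 ± 104 (-2.07, adjusted p 8.78e-05). The means of all 3 fell across the 4 types as they lie from dorsal to ventral: Slit3 had day 6 means of 1138, 452, 271 and 24.0 in p0-1, p2, pMN and p3, Slit2 means of 302, 101, 34.8 and 5.96, and the Robo1 exon means of 202, 131, 37.8 and 5.22. The steps to and from p2 were not tested. Samples overlapped between p0-1 and p2 at the Robo1 exon and between p2 and pMN at Slit3. The Efnb2 element (23.6, 154, 546 and 38) and the Epha3 element (24.2, 81.7, 283 and 25.7) instead peaked in pMN.

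**Figure D3:**
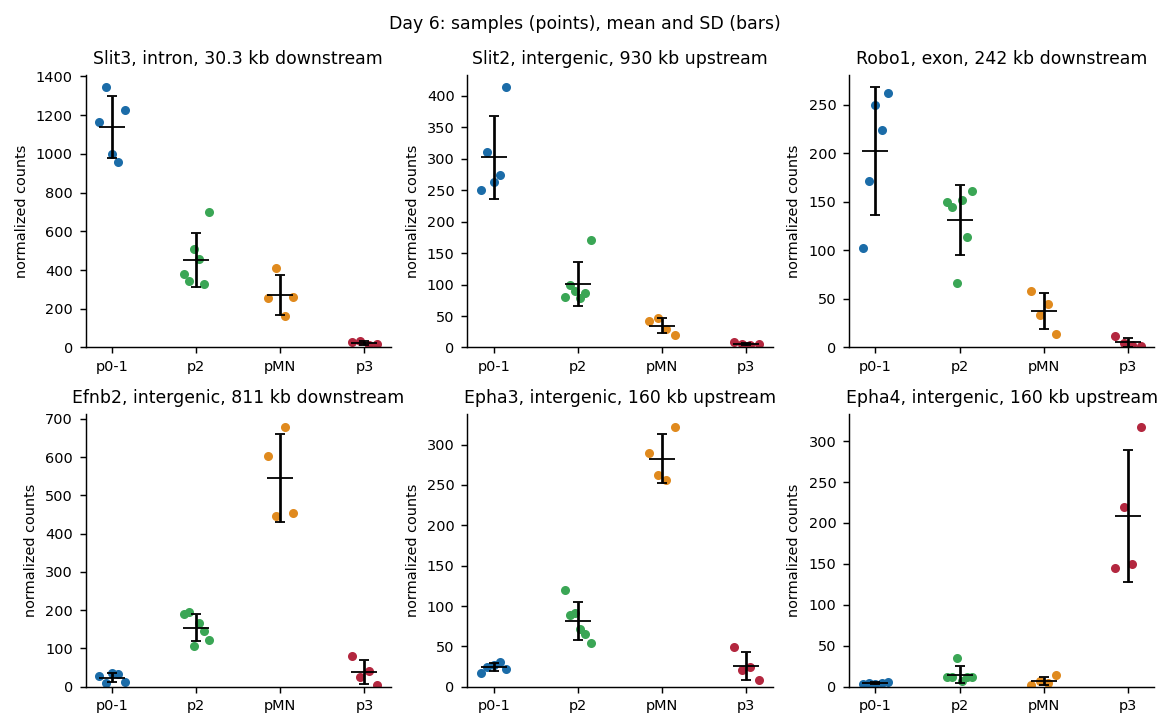
Normalized counts of 6 elements at day 6 in p0-1, p2, pMN and p3 (linear axis from 0), with points for samples and the mean with its SD. The means of Slit3, Slit2 and the Robo1 exon step down from p0-1 to p3, the Efnb2 and Epha3 elements are highest in pMN (means 546 and 283), and the Epha4 element is highest in p3 (mean 208). Samples of p0-1 and p2 overlap at the Robo1 exon, and those of p2 and pMN at Slit3.

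Of 255 members with a day 6 mean above 100 counts, 65 varied more than 4-fold between the 4 type means (25.5%, against 16.0% of all elements). The lowest type was p3 in 51 of the 65 (78.5%, against 62.8% of all elements that varied as much) and the highest was p3 in 10 (15.4% against 26.3%). The means fell step by step from p0-1 to p3 in 21 (32.3% against 22.7%) and rose in 7 (10.8% against 11.7%). The 21 lay near 14 genes, with 3 each at Robo2 and Epha5 and 2 each at Efnb2, Unc5d and Robo1. These shares describe means and carry no test.

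The motifs in the called members were counted as a description. Of 74 members higher in any NP of day 4 than in NMPs, 66.2% held a SOX match, against 61.1% of all elements that were. Among 7 members higher in p3 than in pMN at day 6, 0 held a forkhead match, which 13.7% of all such elements did, a count of 7 being small. Among the 30 that were lower 23.3% held an E-box match, against 49.0% of all such elements.

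Promoters stood apart from these distal elements by how little they moved. A promoter element was present for 22 of the 44 genes, and over the 13 means per type and day the median range was 1.69-fold, against 18.6-fold for the other 208 members with a mean above 100. The range exceeded 4-fold in 1 of 22 promoters and in 149 of 208 others (71.6%). The paper reports a higher dynamic range at distal elements than at promoters across its data. The same shares among all promoters and all other elements are not given here, so the contrast is not shown to be particular to these genes. The exception was the promoter of Epha6, an Eph receptor gene (chr16:60604630-60606764). It held 793, 897 and 858 counts in NMPs, 210 ± 56.9 in pMN (-2.01, adjusted p 1.26e-07) and 144 ± 45.1 in p3 at day 4 (-2.55, adjusted p 3.05e-09). Without 1 of 3 samples (NMP replicate 2, or the first pMN replicate of either SAG concentration) the pMN change came to between -1.91 and -1.97, just short of the fold threshold. It was the only promoter of the 22 called in any of the 10 comparisons between groups.

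**Figure D4:**
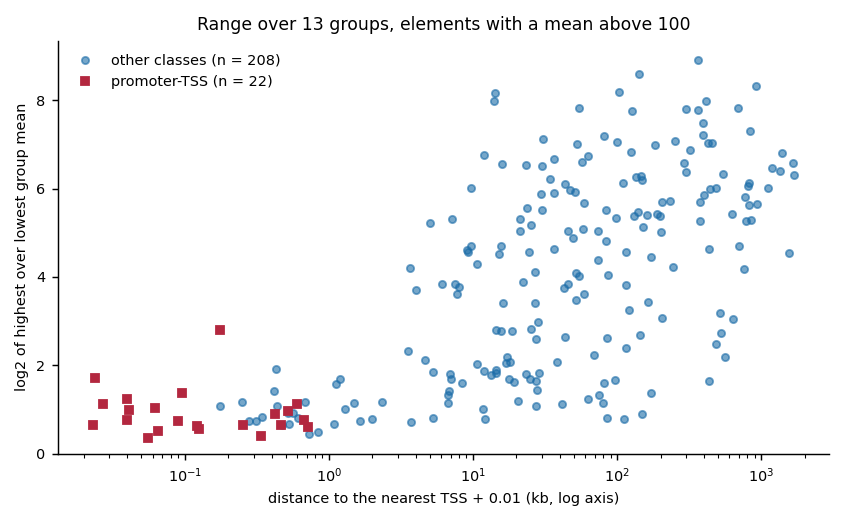
Range over the 13 means per cell type and day (log2 of the highest over the lowest, vertical axis) against distance from the nearest TSS (kb, log axis) for the 230 members with a mean above 100 normalized counts, 22 promoters and 208 others. The promoters lie low, with a median of 0.76 on the log2 scale, and the others have a median of 4.22.

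Summing the counts over all elements of a gene gave each locus 1 value, and a locus counted as changed past 2-fold where limma gave an adjusted p below 0.01. From NMPs to pMN at day 4 7 of 44 loci were higher (15.9%, against 8.25% of all genes) and 5 were lower (11.4%, against 19.6%). Sema3a rose from 615 ± 129 to 3177 ± 349 (log2 change 2.38 ± 0.12 SE, adjusted p 3.83e-10), Robo2 from 1228 ± 114 to 4947 ± 291 (2.01 ± 0.07, adjusted p 1.97e-11) and Robo1 from 2014 ± 302 to 6602 ± 507 (1.72 ± 0.09, adjusted p 5.83e-10). Epha3 (1.47), Dcc (1.32), Sema3d (1.15) and Plxna2 (1.10) were also higher. Epha2 fell from 5095 ± 158 to 905 ± 82.8 (-2.50 ± 0.08, adjusted p 8.45e-12), and Unc5b (-1.34), Epha6 (-1.31), Efna1 (-1.08) and Efna2 (-1.004) were lower too. With samples centered on their median the counts were 12 higher and 1 lower, Epha2 being the one, and without its promoter element Epha6 turned to 1.72 higher. Efna2 lost its call (at -0.96 to -0.99) without NMP replicate 1 or 2 or pMN replicate 1 of either SAG concentration, and Efna1 (at -0.997) without NMP replicate 1.

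From day 4 to day 6 in pMN 10 loci rose (22.7%, against 6.41%) and 0 fell (2.63% of all genes did). Of the 44, 36 had an unadjusted p under 0.05. The share of all genes at that level is not given, here or for p3 against pMN below. The commissural receptor gene Dcc went from 1927 ± 148 to 5724 ± 353 (1.57 ± 0.07 SE, adjusted p 4e-10), Epha3 from 3318 ± 301 to 8741 ± 343 (1.40 ± 0.07, adjusted p 9.91e-10) and Epha5 from 1645 ± 132 to 4333 ± 355 (1.40 ± 0.07, adjusted p 2.12e-09). Ephb2 (1.38), Neo1 (1.30), Unc5d (1.24), Plxna4 (1.18), Unc5a (1.12), Unc5c (1.06) and Epha8 (1.01) also rose. All 10 encode receptors or co-receptors, as do 26 of the 44 genes, and this split was not tested. It depended on the setting: without promoter elements the ligand loci Efna5 (1.12) and Sema3c (1.13) were also called higher. There the receptor locus Epha6 (1.65) was called higher too, and the ligand locus Efna4 (-1.01) lower. With the replicate number as a block Unc5a (0.99) and Epha8 (0.93) missed the fold threshold and the count was 8, and with samples centered on their median it was 6 higher and 1 lower. Epha8 (at 0.93 to 0.99) also missed it without pMN replicate 1 of day 4 or replicate 3 of day 6, at either SAG concentration. Between pMN and p3 at day 6 0 loci were higher in p3 (3.11% of all genes were) and 4 were lower (9.09%, against 4.27%), with 27 at an unadjusted p under 0.05: Epha3 (3205 ± 464 in p3, -1.46 ± 0.09, adjusted p 5.67e-06), Epha5 (1723 ± 101, -1.33 ± 0.07, adjusted p 2.81e-06), Efnb3 (743 ± 55.9 against 1579 ± 224, -1.08 ± 0.10, adjusted p 3.8e-05) and Unc5d (3206 ± 135 against 6505 ± 1227, -1.002 ± 0.12, adjusted p 0.000133). Unc5d sat at the threshold and lost its call with centering and, at -0.91 to -0.98, without pMN replicate 2 or p3 replicate 3 of either SAG concentration. Slit1, a ligand made in the ventral midline, had a higher value in p3 (9626 ± 780 against 5088 ± 1479, a log2 difference of 0.96 ± 0.18, adjusted p 0.00189) that stayed under the fold threshold. It passed, at 1.01 to 1.12, without p3 replicate 2 at 500 nM or without pMN replicate 3 at either SAG concentration.

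**Figure D5:**
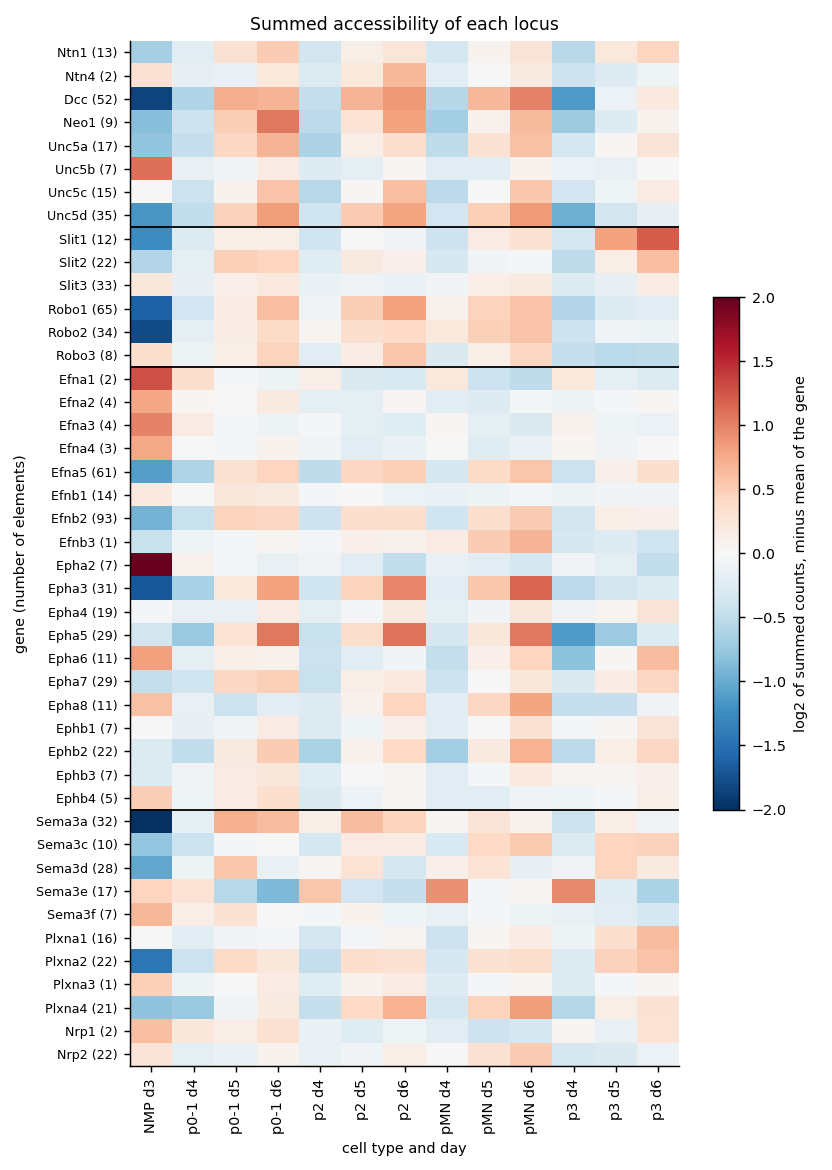
Summed normalized counts of each of the 44 gene loci in the 13 groups of cell type and day, as a heatmap of the log2 sum minus its mean over the groups, red above and blue below that mean. Epha2 is reddest in NMPs, Dcc, Epha3 and Neo1 turn from blue to red towards day 6 in p0-1, p2 and pMN, and Epha3 and Epha5 are blue in p3 at day 6 and red in pMN.

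In all, 348 of the 862 members passed the filter of a mean above 100 counts in at least 1 of the 10 comparisons between groups, 174 were called in at least 1 and 514 were never tested. The called share was 50.0% of the members tested, against 34.5% (15836 of 45963) of all elements tested in at least 1 comparison. A member can pass the filter through the group where it is high alone. Of the 44 genes 34 had a called element, and Ntn4, Efna1, Efna2, Efna3, Efna4, Efnb3, Ephb1, Ephb4, Plxna3 and Nrp1 had none.

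SAG concentrations were compared within a type and day by their values, without a test. Over the 12 pairs of concentrations the median absolute log2 difference of the members was 0.08 to 0.30. In each pair it was above that of all elements, which was 0.065 to 0.257. In p0-1 at day 6 it was 0.296, against 0.176 over all elements, and 25 of 237 members differed more than 2-fold. The p0-1 results of day 6 pool these concentrations. Shares of all elements past 2-fold or 4-fold are not given here. Over all pairs 3 members differed more than 4-fold, all in p0-1 at day 6 between 0 and 10 nM, where the 0 nM group had n = 2. They were named after their values were seen. An element 136 kb upstream of Sema3a was at 65.9 and 86.2 counts without SAG and at 366, 318 and 308 with it. One 441 kb from Efnb2 was at 464 and 403 without and at 90.4, 64.1 and 55.2 with SAG, and one 145 kb from Efnb1 was at 321 and 1164 without and at 83.7, 126 and 342 with it, where the groups overlap.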

How the data were processed

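CaTS-ATAC libraries of 67 HM1 samples were analysed. Per the authors' methods, reads were processed with nf-core/atacseq 1.2.0 on mm10, accessible elements were called with MACS at a false discovery rate of 1e-05, kept where at least 2 replicates held them, and dropped where the q-value reached 1e-05 in no sample. The gene of an element is that of the nearest TSS in the deposited annotation, which per the file headers came from annotatePeaks.pl. Reads per element were counted with featureCounts. The deposited values are on a log2-like scale: the authors divided counts by DESeq2 size factors and applied the variance-stabilizing transformation (VST).

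The transformation was inverted to normalized counts, and 100% of values up to 1000 reads then came out whole within 0.001 of a read in each sample. Of 999 elements annotated to the 44 genes, 137 were not in the table of values. Sequences were read from GRCm38, in which all 111638 elements lay within their chromosomes. No columns of values were left unmapped (0).

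Only elements whose normalized counts averaged over 100 across the compared samples entered the test, which was made by limma 3.58.1 (R 4.3.3; linear model with a variance trend, two-sided) on the VST values, with Benjamini-Hochberg adjustment over all such elements. The call needed an adjusted p below 0.01 together with a shift of more than 2 in log2 of the group mean plus 1. Locus sums were tested on log2 of the sum plus 1, with a threshold of 1. Replicates of a condition were independent differentiations. Same-numbered samples of different SAG concentrations were counted separately, so n is a number of samples and can exceed the number of differentiations. The main fits took no account of this sharing, and the replicate block was tried as an alternative. The submitters' processing notes name DESeq2 and MACS.

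Elements named were those with the 2 largest and 2 smallest fold changes among called members of a comparison, the member with the largest range in each family, and called promoters. The members and gene lists were chosen with earlier results of these data known. Some marker genes are not reported here.

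Replicate numbers came from sample titles, and in 15 samples the description gave another number. Deviations of same-numbered samples correlated at over 0.1 in every pair for pMN day 4 against day 6 (lowest r 0.307), pMN against p3 at day 5 (0.403) and day 6 (0.437) and p0-1 against pMN at day 6 (0.565), and there the numbers were taken to pair the samples. In the other comparisons not every pair did. For pMN against p3 at day 4, 8 of 10 pairs did (median r 0.449). The paper states that different types were sorted from the same dish. Alternatives were another filter, fold threshold, fold scale, scaling, pseudocount, 1 SAG concentration, voom weights, the replicate block, sums without promoters and each sample left out.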

Additional observations from a re-analysis of the deposited data

Results flagged for a closer look

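In the Robo2 element of intron 1, 23.6 kb from the nearest TSS, replicate 1 of day 5 pMN at 100 nM SAG stood at 496.3 normalized counts, far from the other 4 samples of its group, which lay between 358.6 and 360.7. The gap to the nearest sample was 0.985 of the full range of the group, and this was the 1 group flagged of 108 tested. With that many groups looked at, chance was not excluded. The p3 samples of that day lay between 24.1 and 54.5, below all 5.

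At 4 elements the change from day 4 to day 6 differed between p3 and pMN by an interaction term (limma, adjusted p under 0.01). The differences of the log2 changes, p3 minus pMN, were -2.849 in intron 1 of Robo1, -2.777 at the Efnb2 element 252 kb downstream and -2.549 at the Sema3e element 42.7 kb upstream. At the Epha7 element 925 kb upstream the difference was 2.119.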

How the results depend on the processing

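Counts of called members depended most on the filter and the fold threshold. Without the filter on the mean they were 326, 384 and 324 for p0-1, pMN and p3 of day 4 against NMPs, 151, 148 and 159 for day 6 against day 4 in p0-1, pMN and p3, 25, 100 and 149 for p3 against pMN at days 4, 5 and 6, 52 for pMN against p0-1 at day 6 and 56 for the interaction. With a log2 threshold of 1 they were 78, 96 and 78 for day 6 against day 4, 23, 59 and 90 for p3 against pMN, 45 for pMN against p0-1 and 26 for the interaction. With 1 SAG concentration they were 60 for day 6 against day 4 in p0-1, 1 for p3 against pMN at day 4 and 2 for the interaction. For pMN against p0-1 at day 6, the fold on the VST scale gave 9, and centering samples on their median gave 18, with 11 of them lower in pMN where the main count had more higher. Without promoter elements 19 loci changed from NMPs to pMN, against 12. The cause of these shifts was not tested. Leaving out 1 sample moved p3 against pMN at day 4 between 1 and 4 and the interaction between 3 and 9. Adding a replicate block gave counts of 67, 83, 64, 34, 51, 42, 3, 18, 38, 14 and 4 for elements and 12, 8 and 4 for loci. Of the named elements and loci, the block ended the calls of Unc5a and Epha8 for day 6 against day 4 and no other. Among 694 repeats of 42 results of named elements, 679 stayed on their side of the threshold, 15 lost the call and 0 turned direction. Among 395 repeats of 26 called loci, 366 kept the call, 28 lost it and 1 turned direction, Epha6 going from -1.31 to 1.72 against NMPs without its promoter element. Centering moved the median of all elements by -0.17, -0.24 and -0.18 against NMPs for p0-1, pMN and p3.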
